A study of Mus musculus with 20 samples.

Results

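The R-spondin receptors, ligands and ligases are 7 genes of the 33581 listed in each of the deposited expression tables of a Tcf7l2 knockdown time course. They comprise 2 receptors (Lgr4 and Lgr5), 3 secreted ligands (Rspo1, Rspo2 and Rspo3) and 2 ubiquitin ligases (Znrf3 and Rnf43), taken by gene symbol. They were selected on knockdown results of these libraries, namely the lower Lgr4 level before induction, with its ligands, relatives and ligases added by name, so all knockdown differences of these genes are given as descriptions with no test.

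RNA sequencing was performed in 3T3-L1 cells, a mouse fibroblast line that turns into fat-storing adipocytes after hormonal induction. The knockdown groups carried a lentiviral short hairpin RNA against Tcf7l2 (shTcf7l2) and the control groups a scrambled hairpin (shScr), and each arm gave 2 libraries on days 0, 2, 4, 6 and 8 after induction (20 libraries in 10 groups). Both arms were infected at passage 2 with SMARTvector particles and kept as mixed puromycin-selected populations, and the differentiation medium did not routinely contain a thiazolidinedione. Only 1 hairpin against Tcf7l2 was sequenced, and no label tells if paired libraries were grown as separate cultures, so standard errors and p-values measure the spread between these libraries alone.

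R-spondins are secreted proteins that bind the LGR receptors on the cell surface together with ZNRF3 or RNF43. The ligases otherwise mark Frizzled receptors for removal from the membrane. Clearing the ligases leaves more Frizzled at the surface and raises the response of a cell to Wnt ligands. TCF7L2 is a DNA-binding partner of beta-catenin at the end of this pathway, and Wnt signalling is known to hold preadipocytes back from differentiating. LGR5 and RNF43 are best known as Wnt target genes of intestinal stem cells.

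Libraries held 20153362 to 33973608 reads. Tcf7l2 was at 12.2 to 23.4 RPM (reads per 1000000 reads of the library) in knockdown libraries and at 38.5 to 59.0 RPM in scrambled libraries, and its average difference over the 5 days was -1.36 on the log2 scale (SE 0.0866, limma, adjusted p = 2.61e-08). Single-day adjusted p-values of Tcf7l2 lay between 0.00117 and 0.0466 in limma, and of 20 fits that left out 1 library each, the day 2 call was lost in 14 and the day 0 call in 2. Adipocyte markers were higher at day 8 than at day 0 in both arms: their sum over 8 genes lay at 349 to 472 RPM in knockdown libraries and 592 to 677 RPM in scrambled libraries at day 0, and at 2389 to 3831 RPM in knockdown libraries and 6083 to 26204 RPM in scrambled libraries at day 8. Summed markers of endothelial cells (0.328 to 1.28 RPM) and epithelial cells (0 to 1.77 RPM, with Epcam at 0) were near 0 in all 20 libraries, whereas macrophage markers summed to 12.2 to 20.2 RPM and muscle markers to 1.57 to 38.8 RPM, with Myod1 at 0. The macrophage sum came mostly from Itgam (10.5 to 18.9 RPM), with Csf1r, Cd68 and Ptprc at no more than 1.33 RPM each. Des (1.57 to 38.8 RPM) made up nearly all of the muscle sum. Because whole cultures were sequenced, fewer cells of a type and less RNA per cell cannot be told apart in any level given here.

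The promoter of Lgr4 is shown because Lgr4 is the most abundant of the 7 genes, the one named from the knockdown results, and Tcf/Lef proteins are known to bind the letters CTTTGA. The stretch covers the 250 bases before the annotated start, at chr2:109917397-109917646 on the plus strand of GRCm38.p6 (RefSeq), and capitals mark the letters CCAAT.
Lgr4 promoter: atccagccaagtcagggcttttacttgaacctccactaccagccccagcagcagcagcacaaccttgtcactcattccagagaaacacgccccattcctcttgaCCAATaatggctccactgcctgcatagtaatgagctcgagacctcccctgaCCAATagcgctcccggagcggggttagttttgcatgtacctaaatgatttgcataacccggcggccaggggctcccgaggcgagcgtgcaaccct
The letters CTTTGA were searched on both strands in the RefSeq windows of 3 members, which also include 50 bases after the start. It did not occur in the windows of Lgr4, Rspo1 or Rnf43, whereas 16.0% of 32851 promoter windows of that length hold it at least once. CCAAT, a common promoter element that was looked for after the sequence had been seen, occurs 2 times on the plus strand of Lgr4, beginning 146 and 95 bases before the start. On either strand, 37.4% of all windows hold CCAAT at least once and 11.7% hold it 2 or more times. Matches and their absence describe letters in these windows and carry no information on which factors bind there.

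Averaged over both arms and all days, Lgr4 made up most of the receptor, ligand and ligase RNA in these cells. On a scale corrected for exon length, Lgr4 averaged 31.1 ± 11.6 RPM per kb (SD over 20 libraries), which was 90.7% of the sum over the 7 genes and 21.8 times the level of Znrf3, the next in order. Single libraries differ from that share. In knockdown library 1 of day 8, Lgr4 stood at 20.3 RPM per kb, beside 4.56 for Rspo3, 1.48 for Znrf3 and 1.28 for Rspo2. Znrf3 averaged 1.42 ± 0.206, Rspo3 1.03 ± 1.20 and Rspo2 0.686 ± 0.300 RPM per kb. Znrf3 lay above Rspo2 in each of the 20 libraries. Rspo3 ranged from 0.0476 to 4.56 RPM per kb, which spans the ranges of the others, so its place in the order is not settled. Lgr5 averaged 0.0295 ± 0.00966, Rspo1 0.00794 ± 0.0142 and Rnf43 0.00316 ± 0.00450 RPM per kb, the last pair resting on a handful of reads. Only Lgr4, Rspo2, Rspo3 and Znrf3 passed the filter (a mean of 10 or more normalised reads in any of the 5 tables), that is 4 of the 7 genes. A gene can pass through the arm in which it is high, so counts over these 4 are not counts over the family.

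**Figure D1:**
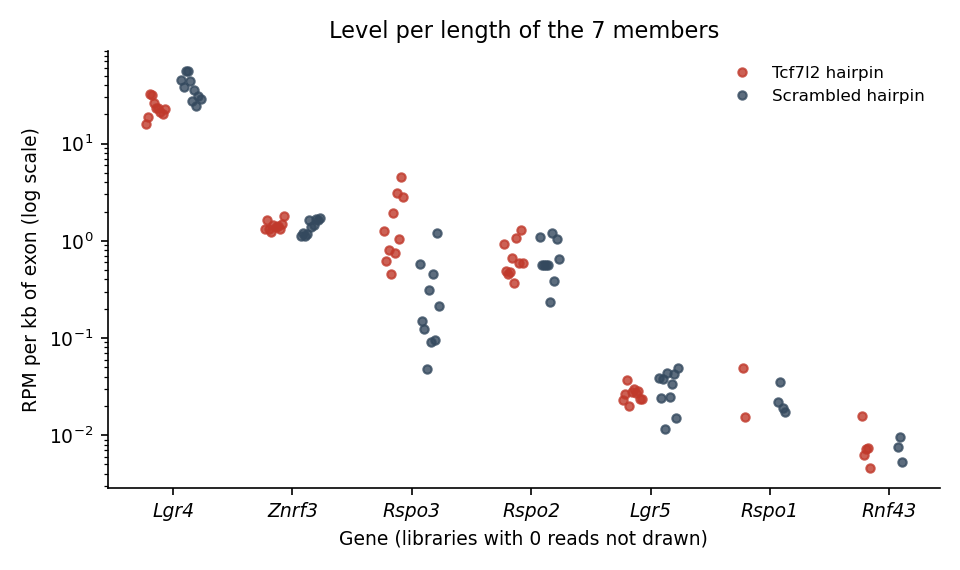
Level of each gene per kb of exon on a log axis, with 1 point per library and libraries with 0 reads left out; knockdown libraries stand left of scrambled libraries. Lgr4 (mean 31.1 RPM per kb) lies above all other members, and Lgr5, Rspo1 and Rnf43 lie far below Rspo2.

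Of the receptors, Lgr4 (ENSMUSG00000050199.7, chromosome 2), a broadly expressed receptor of all R-spondins, was lower in the knockdown libraries on every day. At day 0 it stood at 92.7 and 112 RPM in knockdown libraries, against 263 and 223 RPM in scrambled libraries. At day 2 the values were 193 and 187 RPM in knockdown libraries and 331 and 331 RPM in scrambled libraries. Thus before induction the knockdown arm held 42.1% of the scrambled mean, and at day 2 it held 57.2%. At day 4 Lgr4 reached 155 and 138 RPM in knockdown libraries, against 257 and 161 RPM in scrambled libraries. At day 6 there were 135 and 125 RPM in knockdown libraries and 209 and 143 RPM in scrambled libraries. At day 8 the knockdown libraries had 120 and 133 RPM and the scrambled libraries 182 and 168 RPM. The arms did not overlap on any of the 5 days, and from day 4 onward the knockdown mean was 70.2%, 73.9% and 72.2% of the scrambled mean on successive days. The share of all tested genes lower in knockdown libraries without overlap was 16.4% for day 0, 22.5% for day 2, 21% for day 4, 26.8% for day 6 and 23.1% for day 8.

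On the deposited log2 scale the knockdown minus scrambled difference of Lgr4 was -1.24 before induction and then -0.76, -0.47, -0.44 and -0.51 from day 2 to day 8 (SE 0.19 each, limma, 2 libraries per group; SE 0.15 with library number as a block). Averaged over the days it was -0.68 (SE 0.103). Both arms were at their highest at day 2, and the arms lay closest in absolute level from day 6 onward, at means of 130 ± 7.19 RPM in knockdown libraries and 176 ± 46.9 RPM in scrambled libraries at day 6, and of 126 ± 9.59 RPM in knockdown libraries and 175 ± 9.87 RPM in scrambled libraries at day 8 (SD, n = 2 each). Whether the difference itself changed between days was not tested, since each day's table was transformed on its own. The day 4 and day 6 differences rest on which scrambled library is read: without scrambled library 1 they were -0.15 at day 4 and -0.23 at day 6, and without scrambled library 2 they were -0.78 at day 4 and -0.65 at day 6. Among the 16497 genes that passed the filter, 2.59% were lower in knockdown libraries without overlap on all 5 days, and 375 genes (2.27%) had a lower average difference than Lgr4. Since Lgr4 was chosen with its day 0 value known, nothing further is read from its place.

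**Figure D2:**
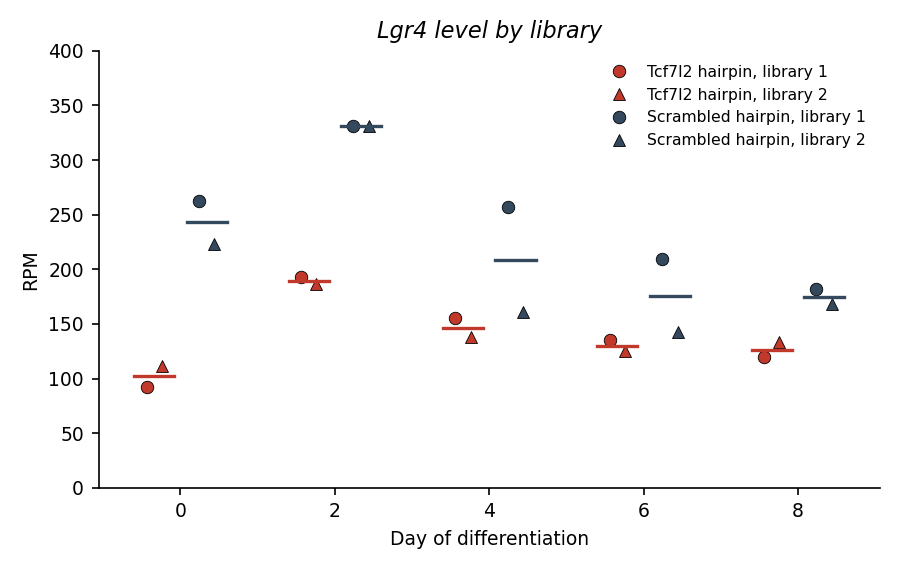
Lgr4 level in RPM by day of differentiation; each point is 1 library and each bar the mean of 2 libraries, with knockdown left of scrambled. All knockdown points lie below the scrambled points of their day, with the widest gap in means at days 0 and 2 and the 2 scrambled libraries far apart at days 4 and 6.

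Lgr5 (ENSMUSG00000020140.9, chromosome 10), the related receptor that marks stem cells of several epithelia, was barely detected. It had 4 to 15 reads per library, or 0.118 to 0.500 RPM, with 77 reads over the 10 knockdown libraries and 89 reads over the 10 scrambled libraries. A difference between arms was not detectable at this depth. The third receptor of the family, Lgr6, is not among the 7 genes; it lay between 0.233 and 3.54 RPM. At day 2 Lgr6 stood at 2.44 and 3.54 RPM in knockdown libraries, against 3.09 and 2.80 RPM in scrambled libraries, and in the 16 libraries of the other days it stayed below 1 RPM. Its average knockdown difference was -0.04 (SE 0.0565, limma, adjusted p = 0.599).

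Rspo3 (ENSMUSG00000019880.9, chromosome 10), a ligand that can also signal through heparan sulphate proteoglycans without an LGR receptor, was higher in the knockdown libraries on every day. At day 0 it stood at 3.86 and 1.92 RPM in knockdown libraries, against 1.79 and 0.467 RPM in scrambled libraries. At day 2 it had 2.51 and 1.41 RPM in knockdown libraries and 0.387 and 0.147 RPM in scrambled libraries. The lowest of these rests on 5 reads, with an exact Poisson 95% interval of 0.0478 to 0.343 RPM. At day 4 the knockdown libraries had 6.02 and 2.32 RPM and the scrambled libraries 0.963 and 0.284 RPM. At day 6 the values were 9.49 and 3.25 RPM in knockdown libraries and 1.42 and 0.293 RPM in scrambled libraries. By day 8 Rspo3 reached 14.1 and 8.73 RPM in knockdown libraries, against 3.72 and 0.666 RPM in scrambled libraries. The arms did not overlap on any day, day 0 having the narrowest gap, and in both arms the day 8 mean was the highest of the time course.

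The ratio of the mean Rspo3 level in knockdown libraries to that in scrambled libraries was 2.57 before induction and then 7.35, 6.69, 7.44 and 5.21 from day 2 to day 8. On the deposited log2 scale the differences were 0.58, 0.60, 1.15, 1.49 and 1.80 in the same order of days (SE 0.44 each, and 0.16 with library number as a block), with an average of 1.12 (SE 0.207). That scale compresses low values, most at day 2: on the recovered reads, limma voom gave 1.66, 2.95, 2.76, 3.01 and 2.81 in the same order, and an average of 2.63 (SE 0.415). From day 2 onward the values on reads thus showed no growth with time such as the deposited scale shows. Over the 10 libraries of each arm, 1383 reads of Rspo3 were counted in the knockdown and 259 reads in the scrambled arm. The share of all tested genes higher in knockdown libraries without overlap was 16.8% for day 0, 21.9% for day 2, 20.4% for day 4, 27.4% for day 6 and 22.4% for day 8. Among all tested genes, 3.58% were higher in knockdown libraries without overlap on all 5 days and 134 genes (0.812%) had a higher average difference than Rspo3.

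The 2 libraries of a group differed for Rspo3 in a regular way. Library 1 lay above library 2 in 10 of 10 groups, a pattern shown by 7.78% of all tested genes, while 5.25% showed the reverse. Compared within a library number, the ratio of knockdown to scrambled level ranged from 2.16 to 6.68 for the libraries numbered 1 and from 4.11 to 13.1 for those numbered 2, so that each of the 10 pairs had the higher level in the knockdown library.

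**Figure D3:**
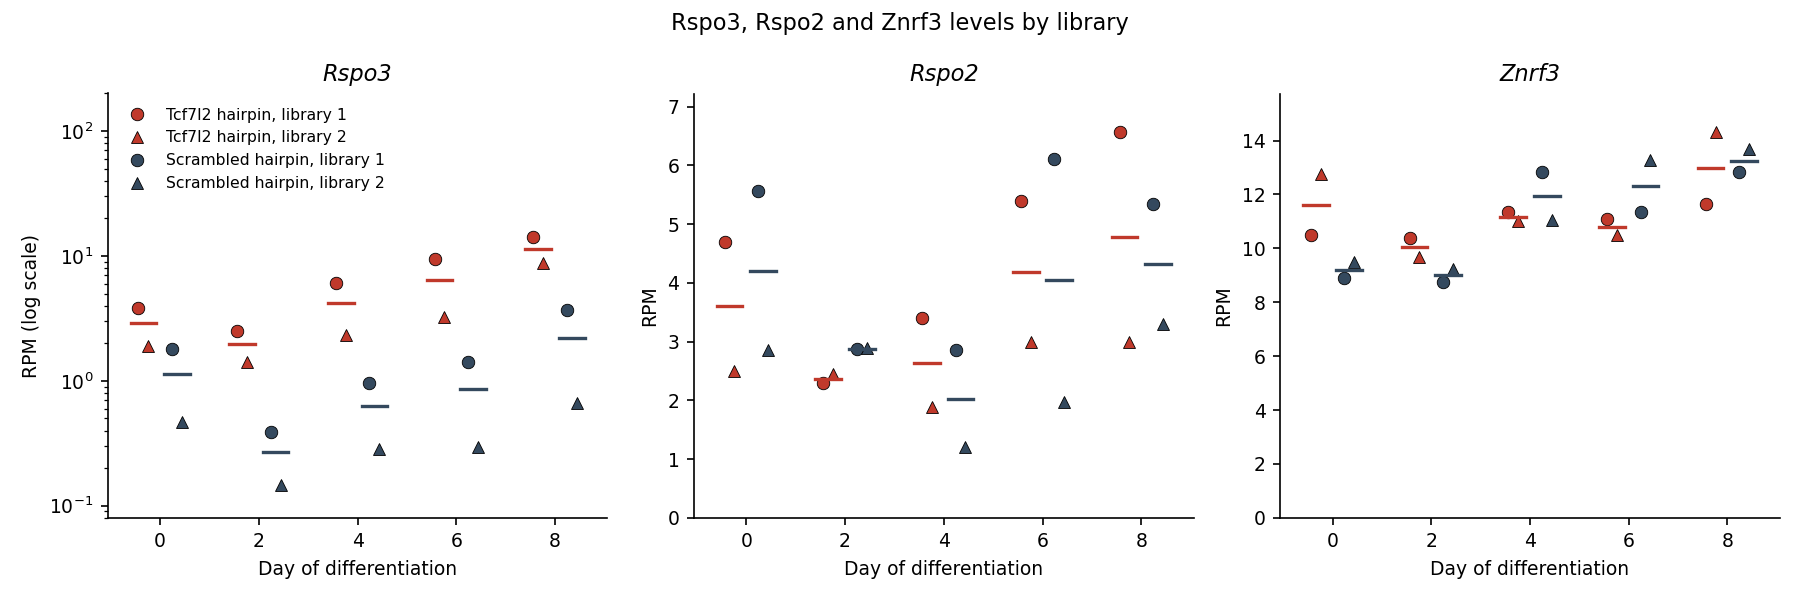
Levels in RPM of Rspo3 (log axis), Rspo2 and Znrf3 by day; points are libraries, circles for library 1 and triangles for library 2, bars are means of 2 libraries, and knockdown stands left of scrambled. Rspo3 is higher in knockdown libraries on all 5 days, Rspo2 differs more between library numbers than between arms on days 0, 4, 6 and 8, and Znrf3 stays between 8.77 and 14.3 RPM.

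Markers of adipocytes moved with the same contrast. At day 4 they summed to 2091 to 3176 RPM in knockdown libraries and 4114 to 12776 RPM in scrambled libraries, with 7 of 8 markers lower in knockdown without overlap. At day 6 the sums were 3256 to 5030 RPM in knockdown libraries and 11297 to 25078 RPM in scrambled libraries, with 8 of 8 lower, and at day 8 again 8 of 8 were lower. The earlier days showed the same direction, with 5 of 8 markers lower at day 0 and 8 of 8 at day 2. From day 4 to day 8, library 2 of each arm had the higher marker sum and the lower Rspo3 level, whereas at day 0 library 2 of each arm was the lower in both. Libraries of the 2 arms with near marker sums are set side by side here as examples, not as a count of all such pairs. Their Rspo3 levels were alike in the first pair below and unlike in the others. Scrambled library 1 of day 8 (6083 RPM of adipocyte markers) had 3.72 RPM of Rspo3, and knockdown library 2 of day 6 (5030 RPM) had 3.25 RPM. Scrambled library 1 of day 4 (4114 RPM of adipocyte markers) had 0.963 RPM of Rspo3, and knockdown library 2 of day 8 (3831 RPM) had 8.73 RPM. At day 2, scrambled library 1 (1304 RPM) had 0.387 RPM of Rspo3 and knockdown library 1 (1097 RPM) had 2.51 RPM. At day 0, scrambled library 2 (592 RPM) had 0.467 RPM of Rspo3 and knockdown library 1 (472 RPM) had 3.86 RPM. Preadipocyte and fibroblast markers (5 genes) lay the other way from day 2 onward. Their sum at day 2 was 4553 to 5030 RPM in knockdown libraries and 3239 to 3518 RPM in scrambled libraries, with 2 of 5 markers higher and 1 of 5 lower in knockdown without overlap. At day 4 it was 10813 to 12496 RPM in knockdown libraries and 5376 to 8403 RPM in scrambled libraries. The day 6 sums were 9743 to 12782 RPM in knockdown libraries and 4487 to 8620 RPM in scrambled libraries, and those of day 8 were 10176 to 11900 RPM in knockdown libraries and 6117 to 8984 RPM in scrambled libraries. On each of these last 3 days 3 of 5 markers were higher in knockdown without overlap. At day 0 the sums overlapped, at 8076 to 12782 RPM in knockdown libraries and 9070 to 15181 RPM in scrambled libraries, with 2 of 5 markers lower. These marker counts stand beside 16.4% to 26.8% of all tested genes lower without overlap on a given day, and 16.8% to 27.4% higher. The part of either marker list in the Rspo3 and Lgr4 levels was not tested.

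**Figure D4:**
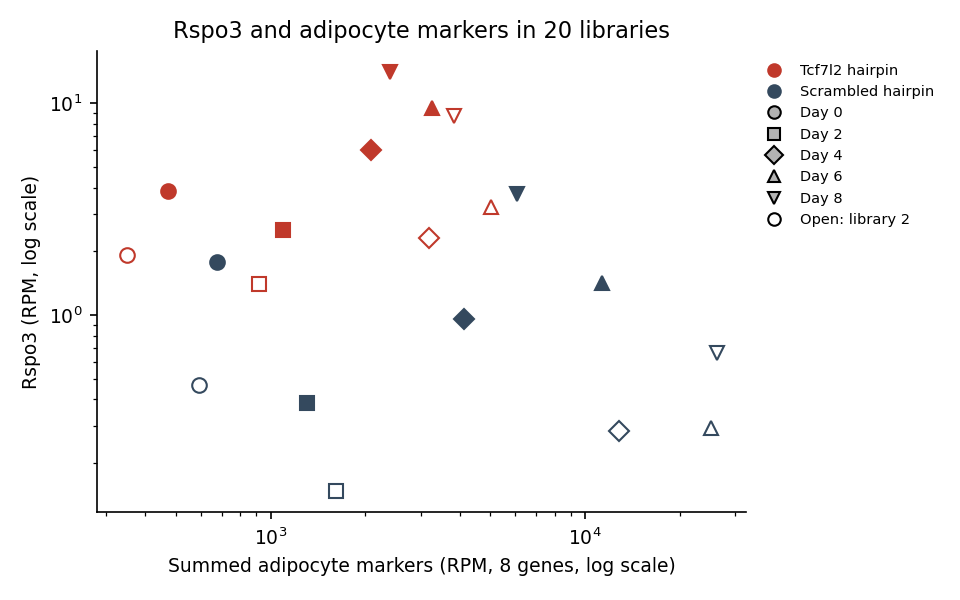
Rspo3 level against the summed level of 8 adipocyte markers in the 20 libraries, both in RPM on log axes; color gives the hairpin, shape the day, and open symbols library 2. Knockdown libraries lie above and to the left of the scrambled libraries of their day.

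Rspo2 (ENSMUSG00000051920.6, chromosome 15), a ligand with known roles in limb and lung development in mice, showed no comparable separation of the arms. It stood at 4.70 and 2.50 RPM in knockdown libraries and 5.56 and 2.86 RPM in scrambled libraries at day 0. At day 4 it had 3.40 and 1.89 RPM in knockdown libraries, against 2.86 and 1.20 RPM in scrambled libraries. At day 8 the values were 6.57 and 2.99 RPM in knockdown libraries and 5.34 and 3.30 RPM in scrambled libraries. On each of these days the ranges of the arms overlapped, and library 1 was the higher in 8 of the 10 groups. Day 6 was alike, with 5.40 and 2.99 RPM in knockdown libraries and 6.11 and 1.98 RPM in scrambled libraries. Only at day 2 did the arms part, at 2.30 and 2.44 RPM in knockdown libraries and 2.88 and 2.88 RPM in scrambled libraries, a separation in this direction that 22.5% of all tested genes showed on that day. The log2 differences lay between -0.13 and 0.20 over the days (SE 0.34 each, and 0.13 with library number as a block). Their average was 0.02 (SE 0.136, and 0.0597 with the block). Compared within library numbers 1 and 2, the ratio of knockdown to scrambled level was 0.846 and 0.873 at day 0. It was 0.800 and 0.846 at day 2, 1.19 and 1.57 at day 4, 0.884 and 1.51 at day 6, and 1.23 and 0.906 at day 8.

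Rspo1 (ENSMUSG00000028871.7, chromosome 4), the ligand used to maintain intestinal organoids in culture, had 8 reads over all 20 libraries. At most 2 reads fell in 1 library, 3 reads were in the knockdown arm and 5 reads in the scrambled arm. In the 14 libraries without a read, the limit that a count of 0 allows (3 reads) corresponds to between 0.0883 and 0.149 RPM across the depths of the 20 libraries. Intervals and limits cover counting error only. The remaining ligand of the family, Rspo4, had 3 reads in all.

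Of the ligases, Znrf3 (ENSMUSG00000041961.7, chromosome 11) lay between 8.77 and 14.3 RPM over the 20 libraries. On a log2 scale it had the smallest spread of the 4 members above the filter (root mean square 0.187 around its mean). At day 0 it stood at 10.5 and 12.8 RPM in knockdown libraries, against 8.88 and 9.49 RPM in scrambled libraries. At day 2 it had 10.4 and 9.70 RPM in knockdown libraries and 8.77 and 9.24 RPM in scrambled libraries. The knockdown libraries were thus higher without overlap on both days, as 16.8% of all tested genes were at day 0 and 21.9% at day 2. At day 4 the values overlapped, at 11.4 and 11.0 RPM in knockdown libraries and 12.8 and 11.1 RPM in scrambled libraries. At day 6 Znrf3 had 11.1 and 10.5 RPM in knockdown libraries and 11.4 and 13.3 RPM in scrambled libraries, lower without overlap as were 26.8% of tested genes. At day 8 the arms overlapped again, with 11.7 and 14.3 RPM in knockdown libraries and 12.8 and 13.7 RPM in scrambled libraries. The log2 differences were 0.23, 0.10, -0.07, -0.18 and -0.07 from day 0 to day 8 (SE 0.13 each), and the average was -0.00060 (SE 0.0618). Separations of this kind were thus common among all genes on each of these days.

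Rnf43 (ENSMUSG00000034177.8, chromosome 11), the other ligase, had 11 reads in all 20 libraries, 7 reads in the knockdown arm and 4 reads in the scrambled arm. No library held more than 3 reads of it, and 12 libraries held none. Neither its level nor a difference between arms could be measured at this depth.

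**Figure D5:**
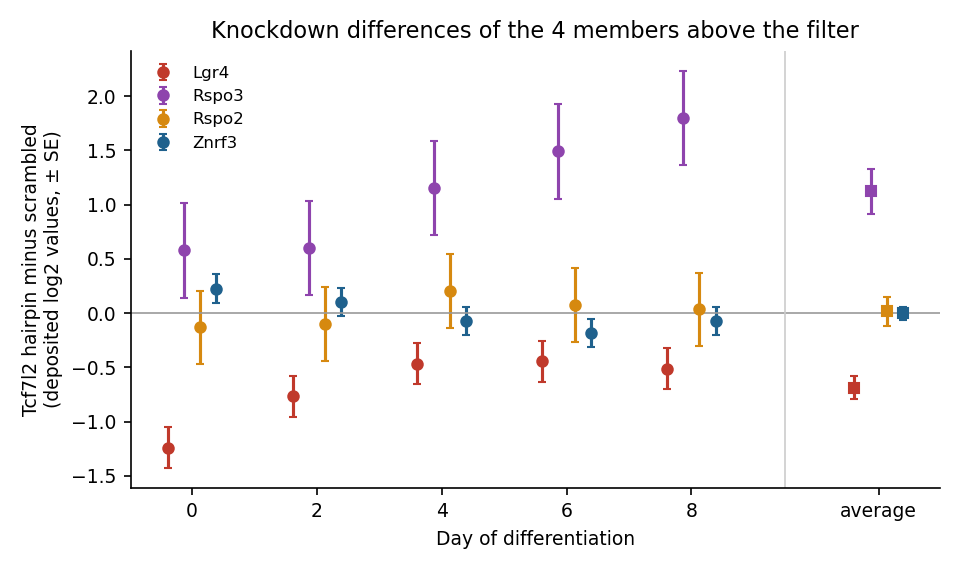
Knockdown minus scrambled difference on the deposited log2 scale with its standard error (limma), for the 4 members above the filter, by day and averaged over days. Lgr4 lies below 0 and Rspo3 above 0 on all 5 days, and Rspo2 (average 0.02) and Znrf3 (average -0.00060) lie around 0.

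The rest of the pathway was read from a list of 52 genes, also chosen with earlier results known, of which 51 had a row and 34 passed the filter; Fzd10 was not analysed here. Averaged over the 5 days, 7 of the 34 rose and 6 fell in the knockdown (limma, adjusted p under 0.05), beside 12.3% of all tested genes that rose and 13.2% that fell. The median difference of the 34 was -0.04, and that of all tested genes -0.00280. Without library 2 of each group from day 4 onward (6 libraries), 4 of the 34 rose and 9 fell. The background shares are those of the fit with all libraries, and none is given for the fit without those 6 libraries. Nothing is read from any of these counts about the pathway as a whole.

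Among the Frizzled receptors, which the ligases act on, 2 of 7 tested fell on average and none rose, beside 13.2% and 12.3% of all tested genes. Fzd4 (average -0.63, SE 0.131, adjusted p = 0.00267) stood at 34.8 ± 5.9 RPM in knockdown libraries and 69.3 ± 1.3 RPM in scrambled libraries at day 6. Its day 8 means were 35.9 ± 0.13 RPM in knockdown libraries and 81.7 ± 17 RPM in scrambled libraries (SD, n = 2 each). Fzd3 (average -0.42, SE 0.104, adjusted p = 0.00864) was scarcer, at 4.50 RPM in knockdown libraries and 9.23 RPM in scrambled libraries at day 8. The Fzd3 call was lost when the 6 libraries numbered 2 of days 4, 6 and 8 were left out (-0.25, adjusted p = 0.110). Of the co-receptors, Lrp6 (-0.44, SE 0.0873, adjusted p = 0.00182) fell, while Lrp5 (-0.14, adjusted p = 0.339) did not pass the test. Lrp6 had 194 ± 11 RPM in knockdown libraries, against 277 ± 32 RPM in scrambled libraries, at day 0.

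Among other Wnt receptors, Ror2, a receptor of Wnt5a, rose on average (0.42, SE 0.0883, adjusted p = 0.00284), as did Ryk (0.19, adjusted p = 0.0180). These were 2 of 4 tested, beside 12.3% of all tested genes that rose. Ror1 (-0.28, adjusted p = 0.193) and Ptk7 (0.09, adjusted p = 0.558) did not pass the test. The Ror1 difference was larger, at -0.59, without library 2 of each group from day 4 onward. Without library 2 from day 4 onward Ror2 was at 0.24 (adjusted p = 0.00759) and the Ryk call was lost (0.11, adjusted p = 0.172). Heparan sulphate proteoglycans, to which R-spondins bind, had 3 of 7 tested members rise and none fall, beside the 12.3% and 13.2% of all tested genes. The glypican Gpc4 (0.58, SE 0.110, adjusted p = 0.00140) had 367 ± 28 RPM in knockdown libraries and 207 ± 3.7 RPM in scrambled libraries at day 8, and the glypican Gpc6 differed by 0.59 (SE 0.161, adjusted p = 0.0144). Sdc2, a syndecan, was the third (0.46, adjusted p = 0.0293). Without library 2 from day 4 onward, Gpc4 (0.44, adjusted p = 0.0343) and Gpc6 (0.37, adjusted p = 0.00759) still rose, Sdc2 was not called (0.34, adjusted p = 0.0577), and Sdc1 (-0.32, adjusted p = 0.0221) and Gpc1 (-0.33, adjusted p = 0.0238) fell.

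Of 2 genes needed to secrete Wnt proteins, Wls rose on average (0.54, SE 0.0783, adjusted p = 0.000131) and Porcn did not pass the test (0.27, adjusted p = 0.106). Wls had 329 ± 21 RPM in knockdown libraries and 191 ± 34 RPM in scrambled libraries at day 6. The adaptors split, with Dvl2 higher (0.25, adjusted p = 0.0232) and Dvl3 lower (-0.20, adjusted p = 0.0411), and both calls were lost without library 2 from day 4 onward (Dvl2 0.08, adjusted p = 0.294; Dvl3 -0.11, adjusted p = 0.114). Dkk2 was the only one of 6 tested antagonists to be called (-0.24, adjusted p = 0.0177), while without those libraries Dkk3 (-0.30, adjusted p = 0.0347) and Sfrp2 (-0.77, adjusted p = 0.000877) were called too. Of the feedback and target genes 2 were tested. Ccnd1, a cell cycle cyclin, did not pass the test (average 0.33, adjusted p = 0.358), with a difference of 1.31 at day 6 (adjusted p = 0.147). Lef1, itself a Tcf/Lef factor, fell (-0.68, SE 0.112, adjusted p = 0.000440), at 9.93 ± 1.2 RPM in knockdown libraries and 22.7 ± 3.4 RPM in scrambled libraries at day 6. Axin2, a widely used readout of Wnt signalling, had at most 13 reads in a library (0 to 0.393 RPM) and did not pass the filter, nor did Nkd1, Nkd2, Sp5 or Tcf7.

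By day, no listed gene was called at day 0 or day 2 (limma, adjusted p under 0.05), with 6 genes at day 0 and 4 genes at day 2 under an unadjusted p of 0.05, and none called by limma voom on reads; over all tested genes 0.145% rose and 0.0788% fell at day 0, and 0.188% rose and 0.0788% fell at day 2. With library number as a block, 1 listed gene was called at day 0. At day 4 Gpc4 was the only call (0.96, adjusted p = 0.0461), beside 1.41% of all tested genes higher and 0.2% lower, and with the block 2 genes were called. At day 6, 1 gene rose, Wls (0.75, adjusted p = 0.0353), and 3 genes fell, namely Lef1 (-1.04, adjusted p = 0.0338), Fzd4 (-0.98, adjusted p = 0.0365) and Fzd3 (-0.73, adjusted p = 0.0419). The background was 2.68% higher and 1.44% lower. With the block 10 listed genes were called. All shares of tested genes by day come from the fit without the block. No share is given for the fit with it, so the block counts are not read against a background. At day 8, Fzd7 (0.63, adjusted p = 0.0283) and Ror2 (0.67, adjusted p = 0.0489) rose and Fzd4 (-1.17, adjusted p = 0.0138) and Fzd3 (-0.81, adjusted p = 0.0223) fell, beside 3.39% higher and 2.35% lower. With the block 8 genes were called at day 8, while Ror2 was not (adjusted p = 0.0503). Without library 2 of each group from day 4 onward, none of these 4 genes was called at day 8, at 0.36 for Fzd7 (adjusted p = 0.476), 0.31 for Ror2 (adjusted p = 0.422), -0.89 for Fzd4 (adjusted p = 0.160) and -0.61 for Fzd3 (adjusted p = 0.329). Each of the calls on a single day in the list was lost when the table of that day was fitted alone.

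Profiles most like those of the members were taken over the 20 libraries as the root mean square difference of log2(RPM + 1), each gene centred on its own mean, among 14029 genes. Nearest to Lgr4, whose own spread around its mean was 0.492, were Tspan11 (0.183), Plekhg3 (0.262) and Pdcd4 (0.265). For Rspo3, with a spread of 1.07, the named neighbours were Adamtsl1 (0.398) and Epha3 (0.449), after a transcript without a gene name at 0.387. Sesn3 (0.218), Nudt16 (0.267) and Dqx1 (0.276) were nearest to Rspo2 (spread 0.467). Around Znrf3 the spread was 0.187, and the profiles of Etohd2 and Armc8 (0.124) were little closer than that.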

How the data were processed

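The submitters' processing notes list the build mm9 and the tools TopHat2 2.0.13, Bowtie2 2.2.3.0, SAMtools and the authors' DESeq2 1.10.1, with no roles stated; the counter, annotation and strand setting are not given in the sources used here. Sequencing libraries came from the TruSeq RNA Sample Prep Kit V2, per the labels. The authors deposited variance-stabilised log2 values per library, 1 table per day. The deposited tables also hold a mean normalised count (signal) per gene, a log2 fold change, a test score and p-values of the authors' own, which were not used as results. No per-library column was left out (0 unused).

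The transformation was inverted to recover reads: 100% of values up to 100 reads lay within 0.02 of a whole number. RPM are recovered reads scaled to library size, set side by side across days with no test. RPM per kb used exon lengths of GENCODE M21, not of the authors' annotation. Differences came from limma 3.58.1 (R 4.3.3; trend, robust) on the deposited log2 values, over 16497 genes with a mean of 10 or more normalised reads in any table, with Benjamini-Hochberg adjustment over them. The 10 group means shared 1 spread (10 residual degrees of freedom); the average took day as a factor (14). Neither fit has a term for library number. Same-numbered libraries of the arms deviated together on each day (correlation 0.78, 0.70, 0.55, 0.54 and 0.47 over genes, days 0 to 8), so a fit with library number as a block was run as an alternative (5 residual degrees of freedom, 9 for the average).

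All members, and up to 4 list genes per direction and comparison with the smallest adjusted p, were named, with Tcf7l2, Rspo4, Lgr6 and the 3 nearest profiles of each member over 1 RPM, of which 1 is not reported here; other list genes were named after their values were seen. Members and lists were chosen with earlier results of these data known. The fit was also run on simulated reads with 200 genes changed by known folds, and the outcome is not reported here. Those reads had 1 fixed dispersion and no effect of library number. The simulation therefore says nothing about the fit under such an effect. Alternatives covered filters, centring, single tables, the replicate block, left-out libraries and limma voom on reads.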

Additional observations from a re-analysis of the deposited data

Results flagged for a closer look

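The knockdown difference of Znrf3 changed sign over the time course, with every knockdown library above every scrambled library at day 0 (log2 difference 0.23) and day 2 (0.10) and below them at day 6 (-0.18), as were 16.8%, 21.9% and 26.8% of all tested genes on those days and in those directions. Fzd7 did the same, lower in all knockdown libraries at day 2 (-0.35, means of 57.2 RPM in knockdown and 75.7 RPM in scrambled libraries) and higher at day 4 (0.26), day 6 (0.40) and day 8 (0.63, means of 74.5 RPM in knockdown and 46.4 RPM in scrambled libraries). Of all tested genes, 22.5% separated in this way downward at day 2, and 20.4%, 27.4% and 22.4% upward from day 4 to day 8. Fzd7 passed limma's test at day 8 (adjusted p = 0.0283) but not at day 2 (adjusted p = 0.899), day 4 (adjusted p = 0.591) or day 6 (adjusted p = 0.132). The difference between days was not tested for either gene.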

How the results depend on the processing

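On single days the differences of Lgr4, Rspo2, Rspo3 and Znrf3 stayed within the spread of the libraries in 583 of 600 alternatives and moved in 17. The averages of Rspo2 and Znrf3 stayed within it in 58 of 58. Most of the single-day alternatives could not have moved. Leaving out 1 of 2 libraries shifts a group mean by no more than the spread used as the limit. Filters, the block and single-table fits leave a single-day difference as it was. Nothing on stability is read from these counts. With 1 library left out the sign of the Rspo2 difference turned on days 0 (-0.39 to 0.12), 4 (-0.07 to 0.48), 6 (-0.38 to 0.53) and 8 (-0.36 to 0.43). The sign of the Znrf3 difference turned on day 8 (-0.20 to 0.05), and so did the signs of both averages, which lie near 0. For Rspo2 such a fit sets 1 library number against both, and its levels differed more by library number than by arm on those days. Within a library number both pairs lay on the same side at days 0 and 4 and on opposite sides at days 6 and 8. The Lgr4 average ranged from -0.75 to -0.63 and the Rspo3 average from 0.99 to 1.21 when each library was left out in turn. On recovered reads, an alternative added after the data were seen, the Rspo3 average was 2.63, and 2.58 with median-of-ratios library sizes, against 1.12 on the deposited scale, which compresses low values. The average count of listed pathway genes was 13 (7 higher, 6 lower), and 11 to 15 with a library left out. With the replicate block the counts by day were 1, 2, 10 and 8 on days 0, 4, 6 and 8, against 0, 1, 4 and 4 without it. Among the average calls with the smallest adjusted p (up to 4 per direction) the block ended none. The calls of Ryk, Dvl2, Dvl3, Sdc2 and Dkk2 were not followed under the block. Each table fitted alone gave 2 at day 2 and 0 at days 4, 6 and 8. Dropping library 2 of every group from day 4 onward (6 libraries) gave 2, 0, 2 and 0 on days 0, 4, 6 and 8, and on average 13 again, but split as 4 higher and 9 lower. Median centring or no filter gave 0 at day 4. Limma voom gave 1 at day 6 and 1 at day 8, and 2 at day 8 with median-of-ratios sizes. Leaving out 1 library gave 0 to 0 for days 0 and 2, 0 to 3 for day 4, 0 to 10 for day 6 and 0 to 11 for day 8. The day 4 call was lost without any library of day 2 or 6, either knockdown library of day 4 or 8, or scrambled library 2 of day 4, while dropping either day 8 scrambled library gave 3. On day 6, 10 genes were called without its scrambled library 1, 0 without its scrambled library 2, either of its knockdown libraries or any library of day 2, and 1 without a knockdown library of day 4 or 8. The day 8 count was 11 when scrambled library 1 was dropped and 0 when any other day 8 library was. The cause was not tested. No share of all tested genes is given for these alternatives, so their counts are not read against a background. Fits with edgeR, DESeq2 and TMM sizes were not run. Depth limits Lgr5, Rspo1 and Rnf43, which had at most 15, 2 and 3 reads in a library.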
